A study of Mus musculus with 4 samples.

Results

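Interferon-stimulated genes are the genes whose transcription interferons switch on, and many of their products block viruses and other intracellular microbes. Here 42 of them were followed by gene name in the GENCODE annotation of mm10, beside 21728 protein-coding genes of the autosomes and the X chromosome. They form a list of known interferon-induced genes given by name, the rule for which uses no measured value, and all 42 were found in the annotation. Of the 42, 41 are annotated as protein-coding and Mx2 as a polymorphic pseudogene.

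DNase-seq maps accessible chromatin by where the nuclease DNase I cuts it. It had been applied to natural killer (NK) cells, cytotoxic lymphocytes of innate immunity, taken as primary cells from female adult mice of the F1 strain B6CASTF1/J at 2 months of age. The 4 libraries form a single group with no treatment label, numbered replicates 1 to 4, so no condition was compared with another and no interferon exposure is stated. Each has its own biosample label, but all share 1 donor identifier, so the SD over libraries may in part be technical, and the tissue and the sort are not named in the sources used here.

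Type I interferons act through the receptor pair IFNAR1 and IFNAR2 and the kinases JAK1 and TYK2 to assemble ISGF3, a transcription factor complex that binds the interferon-stimulated response element (ISRE). Interferon gamma, which NK cells themselves secrete, acts mainly at gamma-activated sites (GAS). Interferon regulatory factors (IRFs) bind the same repeated GAAA units as ISGF3, alone or with ETS-family partners.

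The authors' peak lists held 36247 to 69144 peaks per library, with the most in replicate 3 and the fewest in replicate 4. Numbers of reads are not given in the files. Each peak has a signal set by the authors, whose scale from library to library is not stated. The NK label was set against marker promoters. Of all protein-coding genes, 54.7% had a promoter region shared by at least 3 libraries, and the NK and B cell counts below are near that share. A region shared by at least 3 libraries was found at 5 of 8 NK markers, 2 of 5 T cell markers, 3 of 5 B cell markers, 3 of 7 markers of myeloid and plasmacytoid dendritic cells, and 1 of 3 erythroid markers. The summed marker signal ranged from 18.8 to 50.03 for the NK list, 5.41 to 11.8 for the T cell list, 4.96 to 8.32 for the B cell list, 4.83 to 7.53 for the myeloid and plasmacytoid dendritic list and 0 to 1.15 for the erythroid list. The lists differ in length, so these sums are not comparable between lists. The median over genes of the mean signal was 3.52 for the NK list, 0.643 for the B cell list and 0 for the others. Csf1r, Lyz2, Adgre1 and Siglech, which mark myeloid and plasmacytoid dendritic cells, were at 0 in all 4 libraries, as were Cd3e, Cd4, Cd8a, Hbb-bs and Klf1. Peaks at Pax5, Cd22, Cd3d and Tcf4 were present in all 4 libraries, and the part of other cells in the values below was not tested.

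The sequences directly upstream of 6 members are printed first, because they carry the element that the later results turn on. Each is the 120 bases before the annotated 5' end of the gene, on the strand of the gene, from GRCm38 (mm10). Capitals mark every match to the ISRE core, written GAAANNGAAA with N for any base and searched on both strands, so that a match on the opposite strand reads as TTTC repeats. Overlapping matches run together. The promoters of Zbp1, Usp18, Ifit1 and Isg15 were accessible in at least 3 libraries.
Zbp1 (chr2:173218924-173219043, minus strand): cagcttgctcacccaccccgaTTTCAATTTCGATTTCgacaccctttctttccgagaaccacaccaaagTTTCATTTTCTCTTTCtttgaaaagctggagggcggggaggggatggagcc
Usp18 (chr6:121245786-121245905, plus strand): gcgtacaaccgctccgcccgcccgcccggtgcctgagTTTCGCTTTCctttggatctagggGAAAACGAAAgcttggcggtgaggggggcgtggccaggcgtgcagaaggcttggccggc
Ifit1 (chr19:34640751-34640870, plus strand): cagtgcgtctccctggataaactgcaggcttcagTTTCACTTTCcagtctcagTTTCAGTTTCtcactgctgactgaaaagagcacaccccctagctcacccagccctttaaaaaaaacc
Isg15 (chr4:156200819-156200938, minus strand): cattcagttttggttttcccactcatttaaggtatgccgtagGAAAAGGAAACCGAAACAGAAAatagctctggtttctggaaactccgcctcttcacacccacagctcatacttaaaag
The promoters of Oas1a and Oas2 hold the same core and had no peak in any library.
Oas1a (chr5:120907522-120907641, minus strand): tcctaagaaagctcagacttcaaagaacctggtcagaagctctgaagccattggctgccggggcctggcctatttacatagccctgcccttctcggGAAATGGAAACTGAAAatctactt
Oas2 (chr5:120749854-120749973, minus strand): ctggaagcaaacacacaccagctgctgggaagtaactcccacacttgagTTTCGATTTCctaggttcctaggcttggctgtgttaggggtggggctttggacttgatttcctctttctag
Isg15 carries 3 overlapping cores in 22 bases, and Zbp1 carries 2 pairs of overlapping cores. Both Oas1a cores lie close before the 5' end.

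Most of these promoters were accessible, but weakly. A promoter region, meaning a peak within 1 kb of any annotated transcript 5' end, was recurrent (at one place in at least 3 of 4 libraries) at 32 of the 42 genes, or 76.2%, against 54.7% of all protein-coding genes. It was present in all 4 libraries at 28 members, against 51.7% of all genes, and 7 members had no promoter peak in any library, against 38.6%. A peak was called at 33, 33, 34 and 28 members in replicates 1 to 4, against 55.4, 56.8, 59.1 and 54.2% of all genes. These shares are a description, since the libraries hold 1 group and no test was made of the list. A member had a median of 3.5 annotated 5' ends, against 3 for all genes, so the windows searched were slightly more numerous.

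The signal at the accessible members was low on the scale of NK promoters. Over the 28 members with a region in all 4 libraries, the median of the mean promoter signal (the highest peak signal in the promoter windows, averaged over libraries) was 1.91, against 4.81 over 11240 such genes. Of the 28, 25 lay below the median of all such genes, and the members' median stood at percentile 18.6. Among genes grouped by the CpG content of the promoter, the medians lay closer, as given below. With genes without a peak counted as 0, the median member signal was 1.18, 1.15, 1.78 and 0.678 in replicates 1 to 4, a mean of 1.19 ± 0.451 (SD, n = 4), against a mean of 0.875 ± 0.173 for all genes. The order of the 2 sets therefore turned with the treatment of closed genes: among genes with a peak in a library, the mean of the medians was 1.73 for members and 4.27 for all genes.

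**Figure D1:**
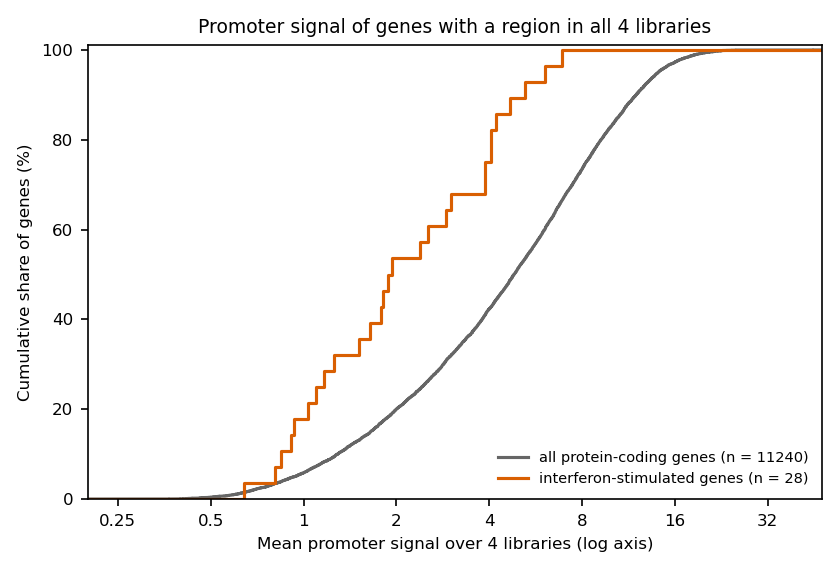
Cumulative share of genes (percent) by mean promoter signal over 4 libraries (log axis), for the 28 interferon-stimulated genes and the 11240 protein-coding genes with a promoter region in all 4 libraries. The line of the interferon-stimulated genes lies to the left over nearly its whole length, with medians of 1.91 and 4.81, and ends at 6.88.

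**Figure D2:**
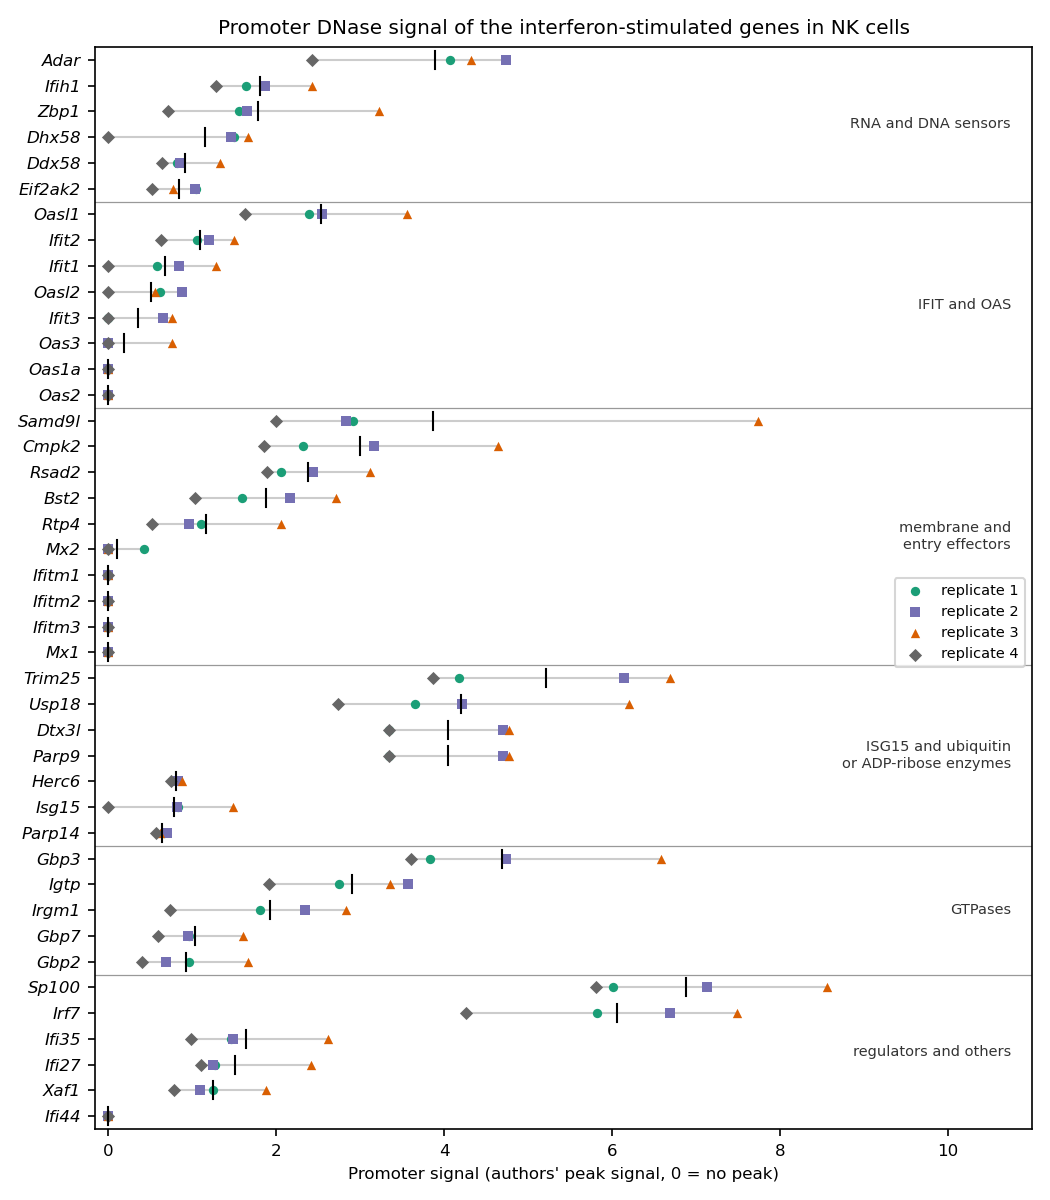
Promoter signal of each of the 42 genes in the 4 libraries (points, one shape per replicate, 0 where no peak was called), with the mean as a black bar, grouped by role and ordered by mean. Sp100 and Irf7 have the highest means, and 7 genes sit at 0 in every library.

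All 6 genes grouped as RNA and DNA sensors, a group in which the RNA-editing enzyme Adar was placed, had a recurrent promoter region. The median signal was 1.47 over the group. Adar, the adenosine deaminase that edits paired RNA, had 4.07, 4.73, 4.33 and 2.43 in replicates 1 to 4, a mean of 3.89 ± 1.01 (SD, n = 4), lowest in replicate 4. That region (chr3:89730601-89730860) covered an internal transcript start 15709 bases into the gene, in what is an intron of the longer transcripts. The recurrent region nearest the outermost Adar start, centred 471 bases upstream, had 0.999, 1.39, 1.14 and 0. A region across that start had a peak of 0.735 in replicate 2 alone. One centred 399 bases downstream had 0.453 in replicate 2 and 0.423 in replicate 4. The internal start carried the higher value in every library.

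Ifih1, which encodes the RNA helicase MDA5, had 1.65, 1.87, 2.43 and 1.29 (mean 1.81 ± 0.477) at a region that spans its 5' end. Zbp1, a sensor of left-handed nucleic acid that can trigger necroptosis, had 1.56, 1.65, 3.23 and 0.711 (mean 1.79 ± 1.05). Replicate 3 was highest and replicate 4 lowest at both. Ddx58, encoding the helicase RIG-I, had a mean of 0.913 ± 0.293, and Eif2ak2, encoding the translation-blocking kinase PKR, 0.846 ± 0.247. Dhx58, encoding their relative LGP2, had 1.50, 1.46, 1.66 and 0 at an intronic region near a transcript that is not protein-coding. At the start of Dhx58 itself only replicate 3 had peaks, and the gene's mean fell to 0.201 when protein-coding starts alone were used.

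The IFIT and OAS genes, whose products bind foreign RNA or make the oligoadenylates that activate RNase L, were the least often accessible alongside the membrane effectors. A recurrent region was present at 4 of 8, and the group median was 0.435. Oasl1, an OAS-like protein without that enzyme activity, stood above the rest with 2.40, 2.55, 3.56 and 1.63 (mean 2.54 ± 0.793), and its lowest library exceeded the highest library of every other gene in the group. Ifit2 had 1.06, 1.20, 1.50 and 0.634 (mean 1.10 ± 0.358). Ifit1 had 0.588, 0.846, 1.29 and 0 (mean 0.680 ± 0.538) at a region also within 1 kb of a start of Ifit1bl2. Replicate 4, the library with the fewest peaks, had none at Ifit1 or Oasl2. Oasl2 reached 0.516 ± 0.372 near an internal start.

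Ifit3 had no recurrent region. Replicate 2 had a peak of 0.654 and replicate 3 one of 0.764 at separate places upstream of the gene. Oas3 had a peak in replicate 3 alone, at 0.764, covering its 5' end. Oas1a and Oas2 had none in any library. The Ifit, Oas, Ifitm, Gbp and Mx genes each have close relatives, and the sources used here do not say how the authors treated reads that match several copies. Reads shared between such copies could lower or move a signal, and values at these genes are uncertain to that degree.

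Among the membrane and entry effectors 5 of 10 had a recurrent region, with a group median of 0.634. Samd9l, an inhibitor of viral protein synthesis, had 2.91, 2.83, 7.74 and 2.00 (mean 3.87 ± 2.61), so its mean rests on replicate 3. Cmpk2, a mitochondrial nucleotide kinase, had 2.33, 3.17, 4.64 and 1.85 (mean 3.00 ± 1.22). Its neighbour Rsad2, encoding viperin, which makes a chain-terminating nucleotide, had 2.06, 2.44, 3.12 and 1.89 (mean 2.38 ± 0.547). At both, replicate 3 was highest and replicate 4 lowest. Cmpk2 also had a region centred 597 bases downstream in a coding exon, at 1.50 ± 0.468.

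Bst2, encoding tetherin, which holds budding virus at the cell surface, had a mean of 1.88 ± 0.723. Rtp4 had 1.16 ± 0.648 at a region (chr16:23609721-23610160) that covers a transcript start 89650 bases from the outermost annotated one, where there was no peak. Mx2, a dynamin-like GTPase, had 1 intronic peak of 0.423 in replicate 1 and none elsewhere. Its neighbour Mx1, of the same protein family, had no promoter peak in any library. Nor did Ifitm1, Ifitm2 and Ifitm3, which encode proteins that block fusion of virus and cell membranes.

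The enzymes of the ISG15, ubiquitin and ADP-ribose systems were accessible at 7 of 7 genes, with the highest group median, 4.04. That median is the value of 1 region shared by Parp9 and Dtx3l and counted for both. Another region of both genes had a mean of 1.73, so the group's rank depends on which region is taken. Trim25, a ubiquitin ligase that acts on RIG-I, had 4.18, 6.14, 6.69 and 3.86 (mean 5.22 ± 1.40) at a region across its 5' end. Usp18, the protease that removes ISG15 and restrains the type I receptor, had 3.65, 4.21, 6.20 and 2.74 (mean 4.20 ± 1.47). Replicate 3 was highest and replicate 4 lowest at both genes.

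Parp9 and Dtx3l, partners in an ADP-ribosylating ubiquitin ligase, lie in opposite directions with overlapping 5' parts and share their regions. The stronger one (chr16:35939781-35940040), in an intron of Parp9, had 3.35, 4.70, 4.78 and 3.34 (mean 4.04 ± 0.804), with replicates 2 and 3 above 1 and 4. The one nearer the starts (chr16:35938721-35939120) had 1.73 ± 0.512. Herc6, the main ISG15 ligase of the mouse, had 0.807 ± 0.0616, and Parp14 had 0.641 ± 0.0597, spreads that were small in all 4 libraries. Isg15 itself had 0.834, 0.816, 1.49 and 0 (mean 0.784 ± 0.609), so the ubiquitin-like modifier had less signal than its protease Usp18 in every library.

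All 5 genes grouped as GTPases, whose families act in defence against microbes in vacuoles, were accessible, with a group median of 1.93. Gbp3 had 3.83, 4.73, 6.58 and 3.60 (mean 4.69 ± 1.35) at an intronic region centred 685 bases inside the gene, while the region across its own start reached 0.708 ± 0.784. Igtp had 2.75, 3.57, 3.36 and 1.92 (mean 2.90 ± 0.740) at a start region also within 1 kb of a start of Irgm2. Irgm1 had 1.81, 2.35, 2.83 and 0.740 (mean 1.93 ± 0.898). Replicate 4 was lowest at all 3. Gbp7 and Gbp2 followed with 1.03 ± 0.423 and 0.930 ± 0.543.

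The remaining group, regulators and others, had a recurrent region at 5 of 6 genes and a median of 1.58, and it held the highest members. Sp100, a nuclear body protein, had 6.02, 7.13, 8.56 and 5.81 (mean 6.88 ± 1.26). That region (chr1:85703621-85703860) is intronic, centred 53753 bases from the outermost start and 299 bases from the nearest annotated one. At the outermost start alone the value was 0.559. Irf7, the factor that amplifies type I interferon transcription, had 5.82, 6.70, 7.48 and 4.26 (mean 6.06 ± 1.38) at its 5' end (chr7:141266341-141266580). Recurrent regions also lay inside Irf7, at 2.62 ± 1.02 and 1.26 ± 0.246. Neither gene had a library below 4.26, and replicate 3 was highest at both.

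Ifi35, which partners the adaptor-like protein NMI, had 1.47, 1.49, 2.62 and 0.990 (mean 1.64 ± 0.690). Ifi27, a small hydrophobic protein, and Xaf1, an antagonist of a caspase inhibitor, had means of 1.51 ± 0.609 and 1.25 ± 0.462. Replicate 3 was highest at these 3 genes. Ifi44 had no promoter peak.

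The members without peaks were also examined in the authors' lists of bases with a false discovery rate (FDR) below 0.05, a finer record than the peaks. Oas1a, Oas2, Ifi44, Ifitm1, Ifitm2 and Ifitm3 had 0 listed bases in all 4 libraries. Mx1 had 6 listed bases, in replicate 3 alone, with a lowest FDR of 0.0499. Mx2 had 62, 4, 49 and 0 listed bases out of 6778 in its windows, and Oas3 had 436 in replicate 3 and 0 elsewhere. Depth is not given, so these zeros mean that accessibility was not detectable here, not that it is absent. The share of members with any listed base was 78.6, 81.0, 85.7 and 66.7% in replicates 1 to 4, against 56.4, 57.8, 60.4 and 55.3% of all genes.

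**Figure D3:**
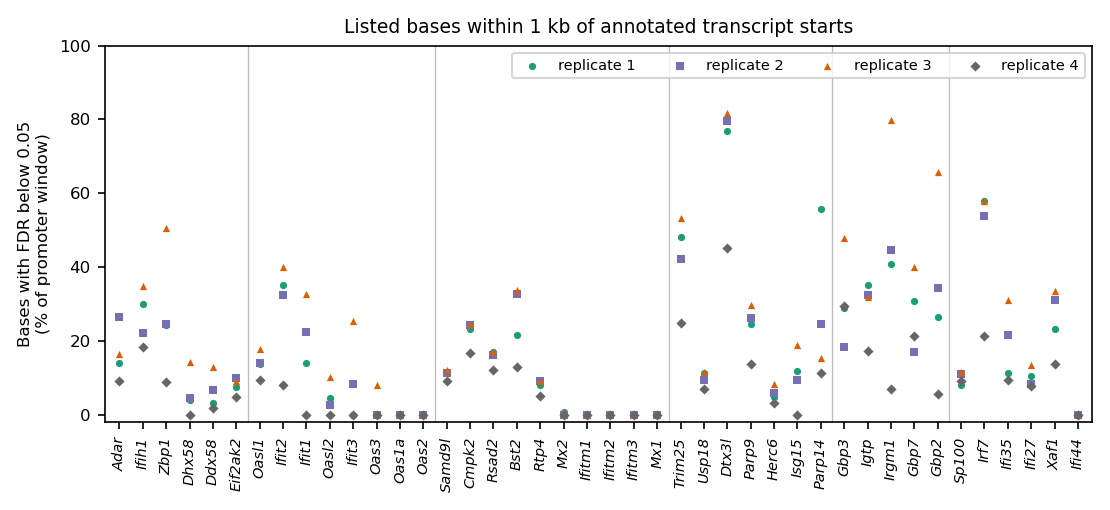
Share of each gene's promoter windows (percent of bases) listed by the authors with an FDR below 0.05, in each of the 4 libraries, in the order of the plot of promoter signals, with grey lines between role groups. Oas1a, Oas2, Ifi44, Ifitm1, Ifitm2 and Ifitm3 sit at 0 in all 4 libraries.

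The ISRE core lay near the 5' end of 22 of 42 members (52.4%), against 3.57% of all genes, in the window from 250 bases before to 50 after the outermost 5' end. The longer form GAAACNGAAA, a subset of the core, was at 10 members (23.8%), against 0.663%. A GAS match, TTCNNNGAA, was at 9 (21.4%), against 8.10%. The ETS-IRF composite GGAANNGAAA, which can overlap an ISRE match, was at 5 (11.9%), against 2.83%. Since ISREs are what these genes are known for, the ISRE shares describe the set.

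Of the motifs of other factors, ETS and SP1 matches were less frequent than in all genes, and RUNX and T-box matches more frequent. The ETS motif CCGGAAG was at 3 members (7.14%, against 10.9% of all genes) and SP1, GGGCGG, at 14 (33.3%, against 43.3%). RUNX, TGTGGTTT, was at 3 (7.14%, against 1.56%) and the T-box motif AGGTGTGA at 1, Irgm1 (2.38%, against 1.21%). Counts of 1 to 3 genes are too few to rank. The windows were poorer in CpG than usual, with a median observed to expected CpG ratio of 0.276 against 0.530 and a median GC content of 50.8% against 55.0%.

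**Figure D4:**
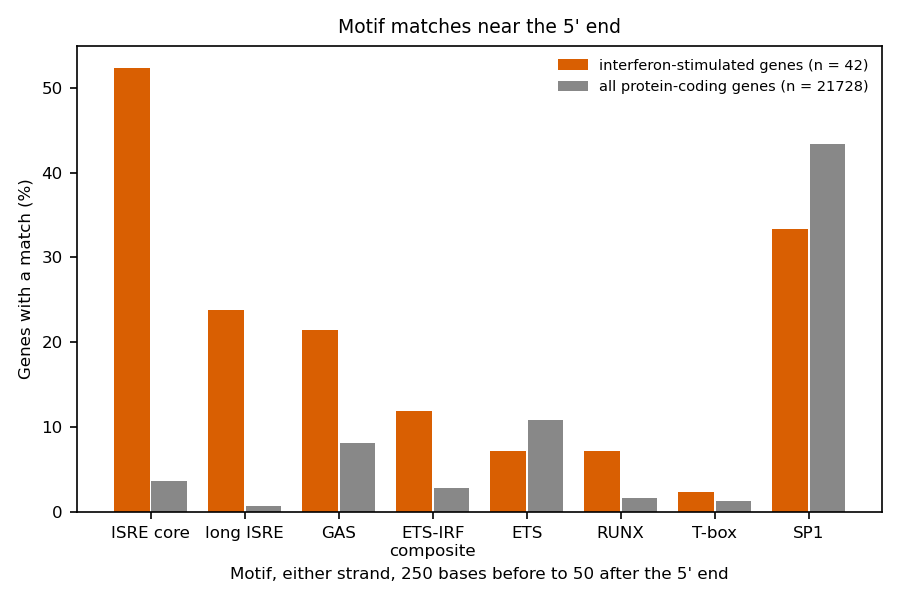
Share of genes (percent) with a match of each of 8 motifs on either strand in the 300-base window around the 5' end, for the 42 interferon-stimulated genes and the 21728 protein-coding genes. The ISRE core stands at 52.4% against 3.57%, whereas SP1 and ETS matches are less frequent in the interferon-stimulated genes.

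Accessibility was then set against these features of the sequence. Of the 22 members with an ISRE core in the window, 15 had a recurrent promoter region, and of the 20 without one, 17 did. The window covers the outermost 5' end only, so the 20 are not all genes without the element. Dtx3l, Parp9, Irgm1, Rtp4, Parp14, Irf7 and Herc6, counted among the 20, hold a core inside a promoter region present in all 4 libraries. Among other protein-coding genes with the core in the window, 364 of 755 (48.2%) had a recurrent promoter region. Among the 35 members with a CpG ratio below the median of all genes, 25 (71.4%) had a recurrent region, where 26.9% of all such genes did. All 7 members at or above that median had one, where 82.5% of such genes did. The signal was compared in the same way among genes with a region in all 4 libraries. Below the CpG median, the median of the mean signal was 1.88 for 21 members, against 2.81 for all such genes. At or above it, the value was 4.04 for 7 members, against 5.52. Of the 7 members without any peak, 4 (Oas1a, Oas2, Ifitm2 and Ifitm3) hold an ISRE core near the 5' end. At Ifitm3 the match of the longer form lies 49 bases downstream of the start and is printed with 10 bases on either side.
Ifitm3 (match at chr7:141010716-141010725, minus strand): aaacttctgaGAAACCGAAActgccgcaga

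Inside the accessible regions the core was frequent. Of 44 recurrent promoter regions of members, 21 (47.7%) held an ISRE core in their central 300 bases, against 2.86% of the 16151 regions of all genes. Those of the shared Parp9 and Dtx3l region and of Irgm1 are printed with 10 bases on either side, on the strand of Dtx3l and Irgm1, as examples of cores footprinted in 2 libraries.
Dtx3l and Parp9 (match at chr16:35938972-35938981): ctggggaatcGAAACTGAAActttgcctct
Irgm1 (match at chr11:48871435-48871444): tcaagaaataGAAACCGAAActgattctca

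A footprint is a short stretch protected from DNase I within accessible DNA, as called by the authors, and a match was counted as footprinted where a footprint covered at least 80% of it. By that measure ISRE cores in members were seldom footprinted in most libraries. Of 38 core matches in the recurrent promoter regions, 10.5, 13.2, 34.2 and 7.89% were footprinted in replicates 1 to 4, against 10.9, 10.1, 18.2 and 6.44% of such matches in all genes. Replicate 3, the library with the most footprints, stood highest for both sets.

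Zbp1 alone had 1 core footprinted in at least 3 libraries (1 of 42 members, against 0.175% of all genes). That match, centred 41 bases before the 5' end, is in the second capital block of the Zbp1 sequence above. A footprint covered all of it in replicates 1 and 3, 80% in replicate 2 and none in replicate 4. Replicate 3 had a footprinted core at 12 members: Dtx3l, Gbp2, Gbp3, Gbp7, Ifih1, Ifit1, Igtp, Irgm1, Isg15, Parp9, Rsad2 and Zbp1. Replicate 1 had 3 (Ifi27, Irgm1, Zbp1), replicate 2 had 5 (Dtx3l, Ifi27, Parp9, Rtp4, Zbp1) and replicate 4 had 3 (Gbp7, Rtp4, Zbp1). The share of all genes with one was 0.304, 0.299, 0.52 and 0.207% in replicates 1 to 4. At least 1 library had one at 14 members, against 0.723% of all genes, so the count depends on how many libraries must share it.

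**Figure D5:**
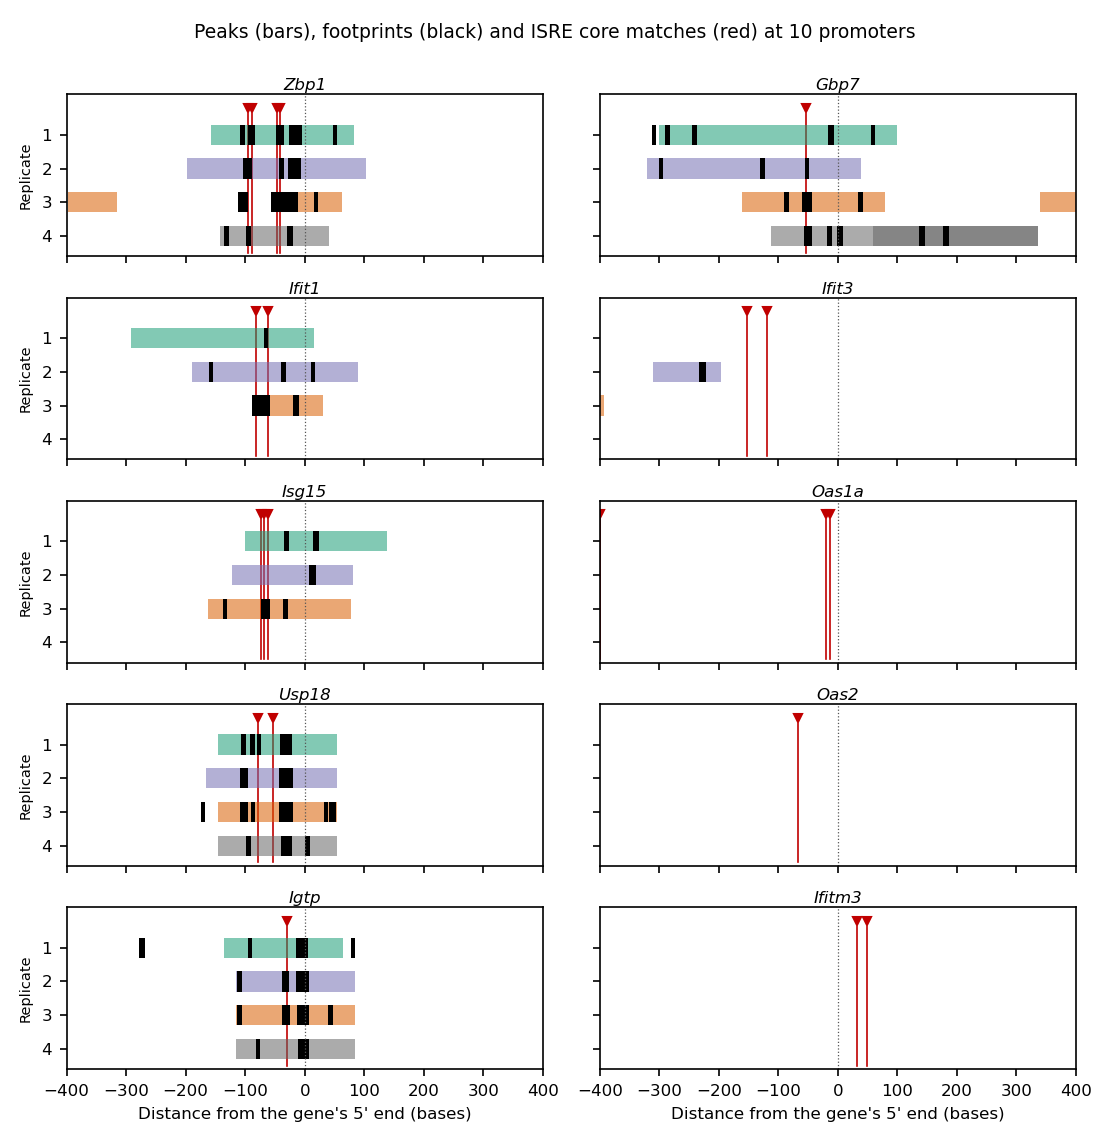
Peaks (coloured bars), footprints (black) and ISRE core matches (red lines) within 400 bases of the 5' end of 10 genes, one row per replicate, with distance from the 5' end in bases, and darker grey where peaks of 1 library overlap. Zbp1 and Usp18 have peaks and footprints in all 4 replicates, whereas Oas1a, Oas2 and Ifitm3 have core matches and no peak.

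Footprints also lay elsewhere in these promoters. Within 1 kb of the outermost 5' end, 22 of 42 members had a stretch footprinted in at least 3 libraries, against 44.8% of all genes, and the members held 55 such stretches. At Usp18 both core matches lay outside such stretches, which covered bases 107 to 100, 98 to 96 and 41 to 23 before the start. The last, shared by all 4 libraries, falls between the second capital block and the end of the Usp18 sequence above. Rsad2, Samd9l, Trim25, Ifi35, Igtp, Irf7, Oasl1, Cmpk2, Gbp3, Dtx3l, Parp9 and Zbp1 each also had a stretch common to all 4 libraries.

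In members' recurrent promoter regions, 10 of 30 SP1 matches (33.3%) were in a footprint in at least 3 libraries, near the 30.7% of such matches in all genes. By the same count it was 1 of 38 for the ISRE core, 0 of 9 for GAS and 0 of 9 for the ETS-IRF composite, against 5.94, 4.95 and 4.57% in all genes. These are too few matches to rank. In total the members' promoter peaks held 10.1 ± 1.02 footprints per kb (SD, n = 4), against 12.1 ± 0.330 for all genes. Footprints are called from cut density, and the members' lower signal stands beside that difference, but its part was not tested.

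Away from promoters the loci were also accessible. Distal means a recurrent region in the gene body or within 25 kb of it that lies more than 1 kb from any transcript 5' end of a protein-coding gene. At least 1 was present at 31 members (73.8%), against 54.7% of all genes. The mean was 1.69 per member locus against 1.34, or 2.39 per 100 kb against 1.61. Because clustered members share neighbours, the 71 locus entries are 63 distinct regions. The means lay close when all 4 libraries were required, at 0.952 per member locus against 0.892. With 1 library required they were 3.26 against 2.99. Within gene bodies alone the order turned, with 0.381 per member against 0.468.

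Trim25 had the most, 6, and Oas3, Sp100, Igtp and Irgm1 had 5 each. The strongest at the Trim25 locus, 5595 bases upstream, had 3.50, 3.53, 4.19 and 1.83. At Sp100 the 5 had means from 1.08 to 1.73, well under the signal of its internal promoter region. At Igtp they lay between 19785 bases upstream and 26259 downstream of the start, with means from 0.898 to 1.58. In none of these loci except Irgm1 did a distal mean exceed 3.26.

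At Irgm1 a 900-base region (chr11:48856201-48857100), centred 15032 bases downstream of the start and beyond the gene, had 7.98, 6.90, 17.3 and 6.71 (mean 9.72), against the gene's promoter mean of 1.93. Its replicate 3 value lay far above the rest. Another region there (chr11:48853481-48853720) had 5.34, 5.79, 7.87 and 4.37. The strongest distal region of any member locus was chr16:35981661-35981840, beyond the 3' end of Parp9, with 21.6, 22.0, 30.5 and 20.2 (mean 23.5). Bst2 had one at chr8:71521761-71521980, with 6.17, 8.20, 8.91 and 5.84 (mean 7.28). Which gene a distal region serves was not tested. Oas2 and Oas3 share 3 distal regions, with means from 0.682 to 1.09, although neither had a recurrent promoter region. An ISRE core was in the central 300 bases of 6 of the 63 (9.52%), against 4.58% of 16534 distal regions of all genes.

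Other genes of the pathway were listed by role. Of 57 matched genes outside the 42, 49 had a recurrent promoter region. Of these, 29 act upstream of the induced genes, as receptors, kinases, factors, regulators or adaptors, and 28 of the 29 had one. Receptors and signalling genes had 11 of 12, the transcription factors 6 of 6, negative regulators 5 of 5 and adaptors 6 of 6, with median signals of 4.57, 6.40, 7.998 and 4.45. Ifngr1, which encodes part of the receptor for interferon gamma, had 14.4, 17.3, 27.3 and 20.7 (mean 19.9), Ifnar1, a chain of the type I receptor, had a mean of 15.9, and the signal transducer Stat3 had 15.1. Their partner chains were far lower, Ifngr2 at a mean of 1.06 and Ifnar2 at 1.57, and Ptpn6, an inhibitory phosphatase, had 1.83. The gene without a recurrent region was Ifnlr1, the receptor chain specific to interferon lambda, with a peak of 0.692 in replicate 4 only.

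The other 28 of the 57 are induced genes, with a recurrent region at 21 and a median of 0.937. Ifi205, Iigp1, Slfn1 and Oas1g had no promoter peak in any library. Copies differed within families. Ifit3b had 0.858, 1.08, 1.97 and 0 where Ifit3 had no recurrent region, and Oas1c had 2.06, 2.34, 2.73 and 1.33 where Oas1a had none.

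The libraries were then compared with each other at these genes. Among the 28 members with a peak in all 4 libraries, the median ratio of replicate 3 to the median of the other 3 was 1.58, from 0.745 to 2.74, against 1.42 for all such genes. Replicate 3 was highest at 24 of the 28 (85.7%, against 79.2% of such genes), and replicate 4 was lowest at 28 of 28, against 49.4%. The 4 exceptions to the first were Adar, Eif2ak2, Igtp and Parp14. With 1 library against 3, an exact test cannot go below p = 0.25, so no test was made. NK marker promoters were also highest in replicate 3, with a summed signal of 50.03 against 18.8 to 20.7 in the others. Klrb1c and Gzma among them had a peak in replicate 3 alone. The T cell list stood at 11.8 against 5.41 to 6.33, whereas the B cell list, at 5.87 against 4.96 to 8.32, was not highest there. Whether the higher values in replicate 3 reflect scaling, depth or the cells was not tested.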

How the data were processed

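DNase-seq of 4 libraries of NK cells was analysed. Per the deposited readmes, the authors made every file library by library, from alignments to mm10 that they had filtered, without pooling. The deposited peak lists give 1 signal value per peak. The deposited lists of bases give an FDR, treated here as a p-value or q-value, and list bases below 0.05. The deposited footprints carry a constant of 0.01 in their p-value column, read as a threshold. The sources used here do not name the aligner or the callers, or give settings. Reads of the CAST haplotype were aligned to the mm10 reference, and the effect of this was not tested.

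Here the longer of the 2 peak lists of each library was used. Peaks that touch or overlap were merged across libraries. Promoter windows reached 1 kb from the 5' ends of all transcripts in GENCODE vM21 on GRCm38.p6, the assembly of mm10. A region was recurrent with peaks in at least 3 libraries, and a gene without a peak was given 0. Names shared by several genes were used once, which left out 27 genes. No set test was run, and comparisons are counts and medians beside those of all protein-coding genes. The role groups, motifs, marker and pathway lists were chosen with earlier results of these data known.

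The genes described with a value in each library are up to 3 per role group with the highest mean signal, those with no promoter peak or a peak in 1 library only, the 5 with the most distal regions, and any with an ISRE core footprinted in at least 3 libraries. Of the pathway genes, these are the 3 with the highest signal and those with no peak. Other genes named were chosen after their values were seen. Alternatives covered the peak list, window, transcript set, number of libraries, locus width and footprint cover, and each replicate left out in turn. Counting was checked on simulated peaks laid across the gene's own 5' end and searched at that base alone. There 200 of the 200 planted promoter genes were recovered among 21729 genes. That check did not cover the 1 kb windows or other transcript starts, and it could not show a gene counted in too many libraries. Python 3.11.15, numpy 2.4.6, pandas 2.3.3 and matplotlib 3.10.9 were used.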

Additional observations from a re-analysis of the deposited data

Results flagged for a closer look

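For 38 groups of 4 values (35 member genes with a peak and 3 counts), the highest or lowest library was compared with the spread of the rest, and chance alone flags about 1 group in 20. The promoter signal of Samd9l was 7.74 in replicate 3, far above its other libraries, and that of Ifi27 was 2.42 in replicate 3. Dhx58 had 0 in replicate 4 where the other 3 libraries had 1.46 to 1.66. Oas3 had 0.764 in replicate 3 and Mx2 had 0.423 in replicate 1, with no peak in their other libraries. Any gene with a peak in 1 library only is flagged by construction, so these flags carry no information. The number of members with a promoter peak was 28 in replicate 4, against 33 or 34 elsewhere. In total 5 of 35 genes were flagged, 3 of them for replicate 3, the library with the most peaks.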

How the results depend on the processing

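No paired analysis was possible because there is 1 group. The count of members with a recurrent promoter region, 32, stayed between 28 and 35 in every alternative run. Counting only genes with a peak moved the median member signal to 1.73. Distal regions numbered 121 with 1 library required, 37 with all 4, 16 within gene bodies alone and 106 with 50 kb flanks. Mean counts per locus, members against all genes, were 3.26 against 2.99, 0.952 against 0.892, 0.381 against 0.468 and 2.98 against 2.16 in that order. Footprints per kb were 11.9 with the shorter peak list. Members with a footprinted ISRE core, 1 in the report, numbered 8 with any overlapping base, 14 with 1 library required (chosen after seeing the data), and 2 to 5 with 1 replicate left out and 2 libraries required: 4 without replicate 1, 3 without replicate 2, 2 without replicate 3 and 5 without replicate 4. That alternative lowers the number of libraries needed. Apart from the 14, against 0.723% of all genes, no share of all genes stands beside these counts of footprinted cores. Nor does one stand here beside the range of 28 to 35 or the 11.9 footprints per kb. Whether a difference from all genes held under those settings is therefore not shown. Single genes moved where the transcript starts changed, as given beside Sp100, Adar, Dhx58 and Rtp4. Parp14 was 0.176 with the shorter list. Parp9 and Dtx3l were 1.73 within 500 bases. With no read numbers in the files, weak peaks, as at Parp14, Oasl2 and Isg15, are the least certain, and replicate 4 limits what counts as present in all 4.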
